A study of Mus musculus with 16 samples.

Results

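Intraepithelial lymphocytes are T cells that sit between the epithelial cells of the gut, and 10 genes of their receptor, killing and homing machinery were followed here. They are Cd3e, Cd3g and Cd3d of the T cell receptor complex, the co-receptor chains Cd8a and Cd8b1, the granule enzymes Gzma and Gzmb, the retention integrin Itgae, the chemokine Ccl5 and the receptor Cd160. They were chosen by symbol, and each was read by the 1 probe set that names that gene alone, among 19938 genes so measured. In gene order on the mouse assembly GRCm38.p6, Cd3g, Cd3d and Cd3e are consecutive on chromosome 9, and Cd8b1 and Cd8a adjoin on chromosome 6. Ccl5 and Itgae are both on chromosome 11, Gzma is on 13, Gzmb on 14 and Cd160 on 3.

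RNA of isolated colonic epithelial cells was hybridised to 16 Affymetrix arrays, and values are log2 intensities. The mice had the strain background C57BL/6, were 70 days old and gender-matched, and carried either 1 or no working allele of Pigr, the receptor that carries secretory IgA (SIgA) across epithelium. Pups of Pigr+/- dams drank milk with SIgA (passive SIgA), and pups of Pigr-/- dams did not. Offspring that were Pigr+/- could transport SIgA of their own (active SIgA), and Pigr-/- offspring could not. The 4 kinds of offspring were thus those with both sources (Pigr+/- from Pigr+/- dams), passive only (Pigr-/- from Pigr+/- dams), active only (Pigr+/- from Pigr-/- dams) and neither (Pigr-/- from Pigr-/- dams). Each kind was either untreated or had 2% dextran sulfate sodium in its water (DSS), a chemical that injures the colon lining, for 8 days, which made 8 groups. Every array held pooled RNA of 3 mice, with 2 arrays a group, so p-values measure the spread between pools. Passive SIgA goes with the dam, so that its effect and that of litter cannot be told apart.

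Most colonic and small-intestinal intraepithelial lymphocytes carry the CD3 complex, and many carry CD8 as an alpha-alpha homodimer or an alpha-beta heterodimer. They are held in the epithelium by the integrin CD103, whose alpha chain is Itgae and whose ligand is E-cadherin, and many store granzymes ready for release. They are known for guarding the barrier and for killing stressed or infected epithelial cells. Ccl5, which draws T cells and monocytes, is made by activated T and NK cells and also by macrophages and epithelial cells.

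The signals of 9 of the 10 genes were low for these arrays. Over the genes, array medians ran from 6.90 to 7.15, and 8 genes were below the median on each of the 16 arrays: Cd3g, Cd3d, Cd8a, Cd8b1, Gzma, Gzmb, Itgae and Cd160. Cd3e was above it on 3 arrays, and Ccl5 on all 16. Cd3g, Cd3d, Gzmb and Cd160 were among the dimmest 30% of all genes, so their differences are hard to tell from background. Probe sets differ in brightness for the same amount of RNA, so these levels do not rank the genes by transcript number. In bulk RNA, fewer cells of a type and less RNA per cell cannot be told apart.

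As a check of the labels, Pigr ran from 12.18 to 12.46 in Pigr+/- offspring and from 11.34 to 11.70 in Pigr-/- offspring, with no overlap. Both arrays of untreated mice with both sources stood apart from the rest. On them the mean of 1234 olfactory receptor, vomeronasal receptor and hair keratin-associated genes, which colon is not known to use, was 5.26 and 5.42, against 4.45 to 4.87 on the other 14 arrays. The differences of Ccl5 and of the named list genes by passive SIgA are therefore given with and without this group. Differences by SIgA are without minus with, those by DSS are DSS minus untreated, and each is followed by its standard error. Called means an adjusted p under 0.05 from limma, with the adjustment made over all genes.

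Ccl5 was the 1 of the 10 genes that was called for passive SIgA: it was lower in mice whose dams had given none. Averaged over the 4 matched pairs of groups, 192 of 19938 genes were called, or 0.963%, so 1 of 10 is a count too small to read against that share. The receptor, co-receptor, granule, integrin and Cd160 genes were not called. At an unadjusted p under 0.05, 3 of the 10 genes passed, namely Ccl5, Gzmb and Cd3d, beside 15.4% of all genes. The median difference of the 10 genes was -0.03, and that of all genes was 0.01.

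Among untreated mice with both sources, Ccl5 was 8.44 and 8.36 on the 2 arrays. In untreated mice with active SIgA only it was 7.81 and 7.89, the lowest values of the 16 arrays. Untreated mice with passive SIgA only had 8.72 and 8.73, and those with neither had 8.35 and 8.29. The arrays without passive SIgA were the lower ones in both pairs, and the replicates lay close together.

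After DSS, mice with both sources had Ccl5 at 8.73 and 8.68, and mice with active SIgA only at 8.44 and 8.08. Those with passive SIgA only had 8.57 and 8.96, and those with neither had 8.41 and 8.39. Again no array without passive SIgA reached its matched arrays with it. Ccl5 was the 1 member lower with no overlap in each of the 4 pairs, as were 109 of all genes (0.547%). Across the pairs the sides did overlap, from 8.36 to 8.96 (median 8.70) with passive SIgA and from 7.81 to 8.44 (median 8.32) without it.

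**Figure D1:**
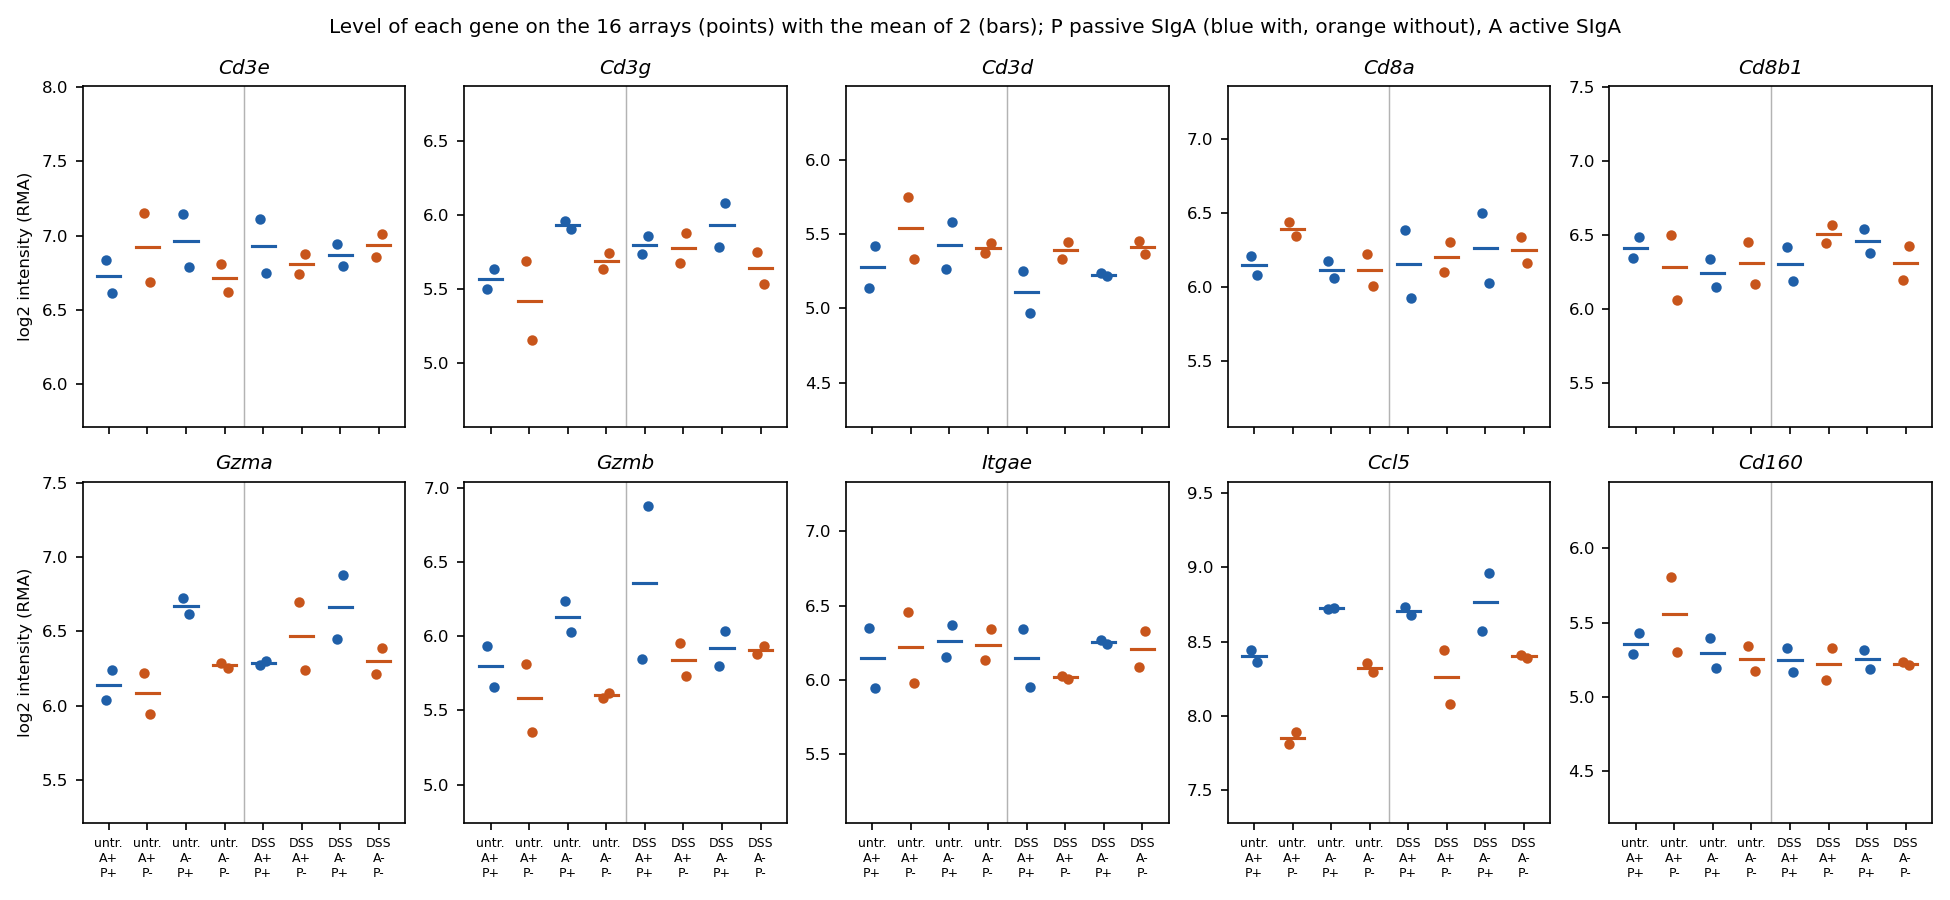
Log2 intensity of each of the 10 genes (vertical axes, a scale per panel) on the 16 arrays, by group (horizontal axis), with a point per array and a bar at the mean of 2. Ccl5 is lower without passive SIgA (orange) in each of the 4 matched pairs with no overlap, which holds for none of the other 9 genes.

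The difference in Ccl5 was -0.44 ± 0.07 over all groups (95% confidence interval -0.59 to -0.29, 1.36-fold, adjusted p = 0.0134), rank 39 of all genes by p. In untreated mice it was -0.48 ± 0.10 (adjusted p = 0.0262), in a comparison that called 514 genes (2.58%). That call was lost with any 1 of 7 untreated arrays left out: either array with both sources, with passive only or with neither, or replicate 1 with active only. With single arrays left out the difference stayed between -0.50 and -0.46, with an adjusted p of up to 0.0895. After DSS it was -0.41 ± 0.10 and was not called (adjusted p = 0.438). That comparison called no gene at all (0%) by limma, and 788 genes (3.95%) had an unadjusted p under 0.05, a share no larger than chance gives. With a trend in limma's prior variance 25 genes were called there. The interaction of passive SIgA with DSS was 0.07 ± 0.14 for Ccl5 (95% confidence interval -0.23 to 0.37, adjusted p = 0.916), so a difference between the treatments was not detectable.

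Within single pairs, Ccl5 differed by -0.55 ± 0.14 in untreated mice with active SIgA, where it was called (adjusted p = 0.0380). This is the pair that holds the group standing apart, and 1080 genes (5.42%) were called in it, a count that ran from 269 to 1519 with single arrays left out. The call was lost with any 1 of 10 arrays left out, the 8 untreated ones or either DSS-treated array with neither source. In untreated mice without active SIgA the difference was -0.40 ± 0.14. After DSS it was -0.45 ± 0.14 with active SIgA and -0.37 ± 0.14 without it. None of these last 3 pairs had a called gene (0% each) by limma, with 7.61%, 3.12% and 3.15% of genes at an unadjusted p under 0.05. In each pair the estimate for Ccl5 was below 0.

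Without the group that stood apart, Ccl5 differed by -0.40 ± 0.08 over the remaining 3 pairs and was no longer called (adjusted p = 0.192). Of all genes 3 were called then, against 192. In untreated mice alone, where 1 pair then remained, it was -0.40 ± 0.14 (adjusted p = 0.586). Leaving out each of the 16 arrays in turn gave differences over all groups from -0.49 to -0.39, with adjusted p from 0.00889 to 0.0442.

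**Figure D2:**
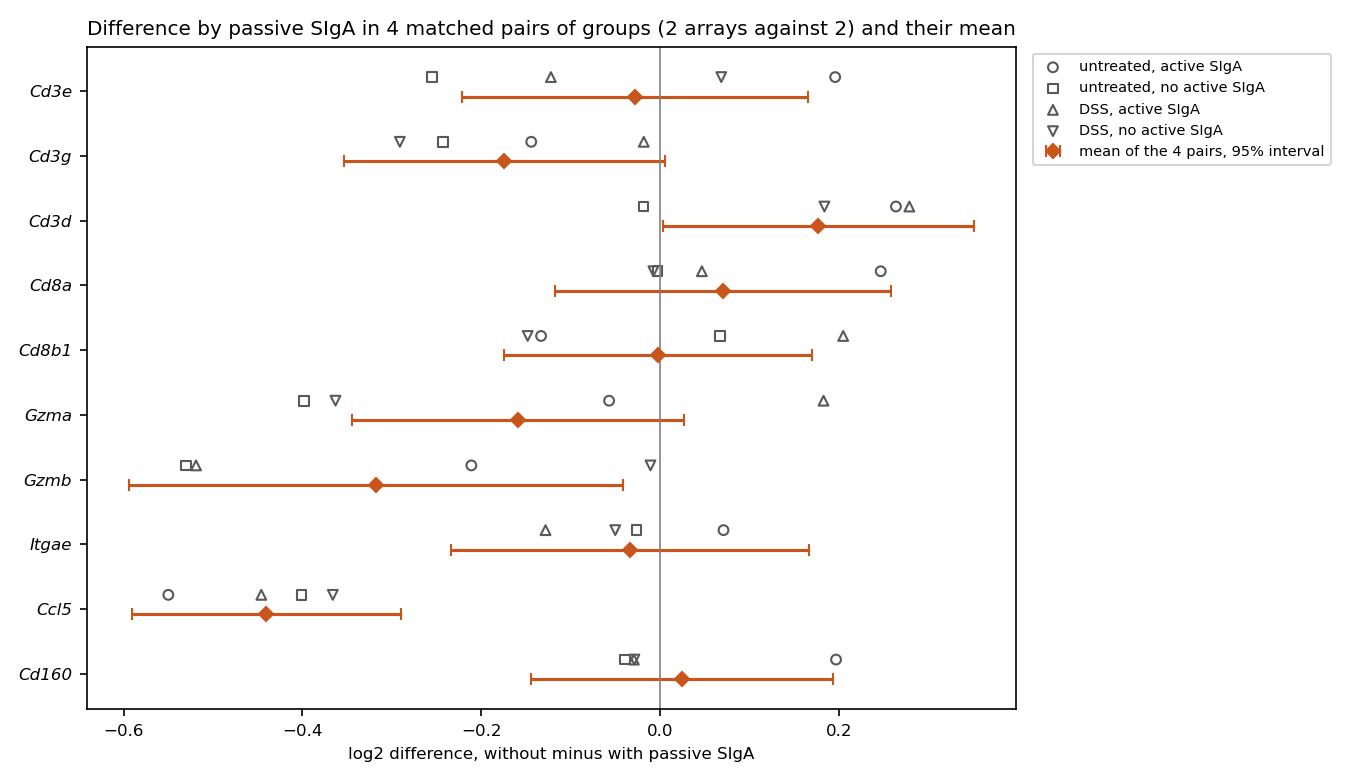
Log2 difference by passive SIgA (horizontal axis, without minus with) for each of the 10 genes, over all groups with its 95% confidence interval and in each of the 4 matched pairs. The 4 pairs of Ccl5 run from -0.55 to -0.37, and those of Gzmb from -0.53 to -0.01 with wider errors.

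Both granzymes had point estimates below 0 without passive SIgA, and neither was called. Gzmb was below 0 in each of the 4 pairs, at -0.21 and -0.53 in untreated mice and -0.52 and -0.01 after DSS (with and without active SIgA). Gzmb, a serine protease that triggers death of target cells, ran from 5.66 to 6.88 (median 5.98) on the 8 arrays with passive SIgA and from 5.36 to 5.95 (median 5.77) on the 8 without. The sides overlapped, and the difference was -0.32 ± 0.13 (adjusted p = 0.260). Its highest value, 6.88, came from DSS-treated replicate 2 with both sources, whose partner array had 5.85. Without the high array the difference was -0.19 ± 0.09 (adjusted p = 0.344). Without its partner instead, it was -0.45 ± 0.09 and Gzmb was called (adjusted p = 0.0377).

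Gzma, the other main granzyme of these cells, ran from 6.04 to 6.88 (median 6.37) with passive SIgA and from 5.94 to 6.70 (median 6.25) without, again with overlap. Its difference was -0.16 ± 0.09 (adjusted p = 0.399). Among mice without active SIgA it was -0.40 in untreated and -0.36 in DSS-treated mice, and among mice with it -0.06 and 0.18. The interaction of passive with active SIgA was -0.44 ± 0.17 for Gzma, which did not pass the adjustment (adjusted p = 0.537, unadjusted p = 0.0226, limma).

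The 3 CD3 chains, which carry the signal of the T cell receptor into the cell, gave estimates of different sign, none of them called. Cd3d was 5.26 ± 0.18 (SD, n = 8) with passive SIgA and 5.44 ± 0.14 without, a difference of 0.18 ± 0.08 (adjusted p = 0.314). Cd3g went the other way, 5.81 ± 0.19 against 5.63 ± 0.22, with a difference of -0.17 ± 0.08 (adjusted p = 0.338). Cd3e was 6.87 ± 0.18 against 6.84 ± 0.18, a difference of -0.03 ± 0.09 (adjusted p = 0.905). The arrays of both sides overlapped for each chain.

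The co-receptor chains gave estimates near 0. Cd8a, which occurs in both forms of CD8, was 6.17 ± 0.19 with passive SIgA and 6.24 ± 0.14 without, and differed by 0.07 (95% confidence interval -0.12 to 0.26). Cd8b1, the chain of the alpha-beta form, was 6.36 ± 0.13 against 6.35 ± 0.18, with an interval from -0.18 to 0.17. Differences inside these intervals remain compatible with the data, which do not show that the levels were alike.

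Itgae differed by -0.03 ± 0.09 (6.20 ± 0.17 with passive SIgA, 6.17 ± 0.18 without). Cd160, a receptor for the tumour necrosis factor receptor family member HVEM on epithelial cells, differed by 0.03 ± 0.08 (5.29 ± 0.10 against 5.31 ± 0.21). Both overlapped between the sides.

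The test of whether the effect of passive SIgA changed with DSS called 23 genes (0.115%) and none of the 10 by limma, nor did any of them reach an unadjusted p under 0.05. The test against active SIgA called 15 genes (0.0752%) and none of the 10, of which Gzma alone had an unadjusted p under 0.05. Without the group that stood apart, and so with fewer groups, neither of these tests called a gene.

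Active SIgA called 274 genes (1.37%) and none of the 10 by limma. Without the group that stood apart 1 gene of all was called. Of the 10 genes 2, Ccl5 and Gzma, had an unadjusted p under 0.05. Ccl5 was 8.30 ± 0.34 (SD, n = 8) in offspring with it and 8.55 ± 0.23 in offspring without, a difference of 0.25 ± 0.07 (adjusted p = 0.103). Gzma differed by 0.23 ± 0.09 (adjusted p = 0.189). The sides overlapped for both genes. For both genes the sign was opposite to that by passive SIgA.

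After DSS, none of the 10 genes was called by limma, while 2618 of all genes were (13.1%). Ccl5 alone had an unadjusted p under 0.05, with 0.21 ± 0.07 (adjusted p = 0.0684). It was 8.32 ± 0.33 in untreated and 8.53 ± 0.27 in DSS-treated mice, with overlap. Its difference was 0.17 ± 0.10 with passive SIgA and 0.24 ± 0.10 without it. These separate comparisons called 9.37% and 3.92% of genes and none of the 10, of which none and 1, Ccl5, had an unadjusted p under 0.05. Without the group that stood apart 310 genes were called with passive SIgA, against 1869, and 627 without it, against 782. The comparison with passive SIgA then lacked a pair of groups, so these counts differ in power and cannot be ranked. Gzmb differed by 0.23 ± 0.13, Gzma by 0.14 ± 0.09, Cd3g by 0.13 ± 0.08, Cd3d by -0.13 ± 0.08 and Cd160 by -0.13 ± 0.08. The remaining 4 genes lay between -0.06 and 0.08. The median over the 10 was 0.07, and over all genes -0.0044. With single arrays left out, the DSS difference of Gzmb ran from 0.10 to 0.36 and that of Ccl5 from 0.16 to 0.26.

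**Figure D3:**
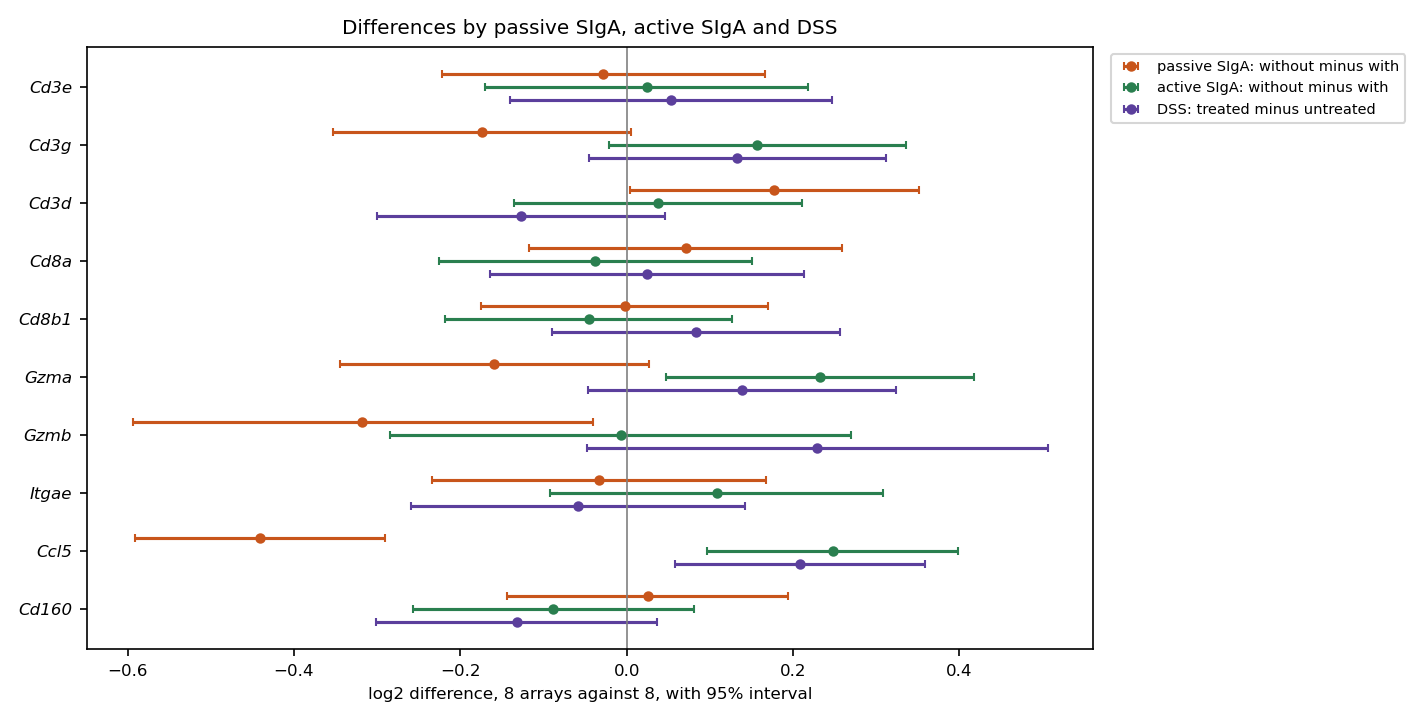
Log2 differences (horizontal axis, with 95% confidence intervals) of the 10 genes by passive SIgA, by active SIgA and by DSS, each averaged over 4 matched pairs of groups. For Ccl5 the passive estimate is -0.44, and those by active SIgA and by DSS are 0.25 and 0.21.

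Ordered by group mean, Ccl5 was lowest in untreated mice with active SIgA only (7.85 ± 0.06, SD, n = 2). There followed DSS-treated mice with active SIgA only (8.26 ± 0.25) and untreated mice with neither (8.32 ± 0.04). DSS-treated mice with neither (8.40 ± 0.02) and untreated mice with both (8.40 ± 0.05) had nearly the same mean. The highest 3 were DSS-treated with both (8.71 ± 0.04), untreated with passive only (8.72 ± 0.0035) and DSS-treated with passive only (8.77 ± 0.28). The arrays of the last 3 groups overlapped, as did those of the third to the fifth with the second. Between the fifth and the sixth, and between the first and the second, they did not.

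The 2 pools of untreated mice with active SIgA only differed from each other across the genes. Replicate 1 had the highest Cd3e (7.16), Cd3d (5.75), Itgae (6.46) and Cd160 (5.81) of the 16 arrays and the lowest Ccl5 (7.81). Replicate 2 had the lowest Cd3g (5.15), Cd8b1 (6.06), Gzma (5.94) and Gzmb (5.36). Over the 9 genes other than Ccl5, the mean deviation from each gene's own mean was 0.18 on the first and -0.23 on the second, the outermost values of the 16 arrays. On replicate 1 the mean of the olfactory, vomeronasal and keratin-associated genes was 4.87, the highest of the 14 arrays outside the group that stood apart. Its part in these values was not tested.

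The mean deviation of all 10 genes was set against every other gene over the 16 arrays, with unnamed, predicted and microRNA symbols left aside. The 6 most like it were Sgsh, a lysosomal sulfatase (Pearson r = 0.831), Septin9 (0.817), the uracil-DNA glycosylase Ung (0.806), Bard1 (0.799), Ncln (0.797) and the DNA repair gene Fanca (0.793). These correlations are a description of arrays normalized together.

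Lists of other genes were read in the same fit, 14 in all with 223 measured genes, none of them among the 10. For passive SIgA over all groups, 13 of the lists had no called gene by limma. Of 24 genes of the T cell receptor complex and its proximal signalling the median difference was -0.0041. Their mean level ran from 5.98 to 6.17 over the arrays with passive SIgA and from 5.85 to 6.29 over those without. Trat1 had -0.22 ± 0.06 (adjusted p = 0.105), Cd96 -0.26 ± 0.10 (0.246) and Ptprc, the pan-leukocyte CD45, -0.23 ± 0.09 (0.264). Without the group that stood apart they had -0.11 ± 0.07 (0.846), -0.11 ± 0.10 (0.938) and -0.27 ± 0.11 (0.604).

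Of 26 cytotoxic effector genes the median was -0.01. Srgn, the proteoglycan that holds granzymes in granules, had -0.51 ± 0.12 (adjusted p = 0.0634), and Ctsc, the protease that activates them, had -0.33 ± 0.08 (0.0778). Both genes also work in myeloid cells. Of 21 NK-type receptors 15 had estimates below 0 (median -0.05), with Klra6 at -0.37 ± 0.08 (0.0534) and Klrd1, which encodes CD94, at -0.28 ± 0.09 (0.167). The mean of this list was 4.65 to 5.11 over the arrays, and all 21 genes were below the median of all genes. The olfactory, vomeronasal and keratin-associated genes had array means of 4.45 to 5.42, so the list mean is hard to tell from background. By active SIgA 20 of the 21 had estimates below 0 (median -0.10), with none called. Of 22 homing and retention genes 13 were below 0 (median -0.05), among them Ccr9, the gut-homing receptor, at -0.24 ± 0.08 (0.164) and the hyaluronan receptor Cd44 at -0.29 ± 0.08 (0.115). Without the group that stood apart Klra6 had -0.23 ± 0.08 (0.548) and Klrd1 -0.17 ± 0.11 (0.842). Srgn then had -0.46 ± 0.14 (0.441), Ctsc -0.27 ± 0.10 (0.552), Ccr9 -0.225 ± 0.095 (0.626) and Cd44 -0.25 ± 0.10 (0.598).

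Of 12 receptors and relatives of Ccl5, 10 had estimates below 0 (median -0.08). Ccl3, which shares receptors with Ccl5, had -0.52 ± 0.14 (adjusted p = 0.0905), Ccl6 had -0.33 ± 0.09 (0.112) and Ccl9, the next coding gene after Ccl5 in chromosome order, had -0.26 ± 0.08 (0.136). Without the group that stood apart these genes had -0.56 ± 0.16 (0.367), -0.26 ± 0.11 (0.654) and -0.20 ± 0.09 (0.657). The 19 genes of epithelial partners, such as cytokines and butyrophilin-like proteins, had a median of 0.08, with Cxcl9 at 0.26 ± 0.11 (0.282). Cxcl9 had 0.08 ± 0.13 (0.993) without the group that stood apart. The 19 maintenance factors had a median of -0.01, and the 15 CD4 and regulatory T cell genes had one of 0.01.

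Of a list of 26 genes of gamma delta T cells, 5 were measured here, namely Trgv1, Sox13, Blk, 5830411N06Rik and Cd163l1. Only Trgv1, a variable segment of the gamma chain, is part of the receptor itself. Trgv1 was called (-0.37 ± 0.08, adjusted p = 0.0439). It was 5.83 and 6.20 on the arrays of untreated mice with both sources. Without that group it differed by -0.12 ± 0.08 (adjusted p = 0.858).

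Markers of other cell types were read for passive SIgA as well. Of the macrophage and monocyte genes 13 of 15, and of the neutrophil genes 10 of 12, had means below the median of all genes. None of 15 macrophage and monocyte, 12 neutrophil, 14 B and plasma cell, 12 fibroblast or 15 epithelial genes was called. Their medians were 0.02, -0.05, 0.01, 0.07 and 0.02. Retnlg, a neutrophil gene, had -0.38 ± 0.10 (adjusted p = 0.0951), and -0.45 ± 0.12 (0.332) without the group that stood apart. Over all groups 7 of the 12 neutrophil genes had estimates below 0 and 5 above. Lcn2 of that list had -0.41, and -0.54 ± 0.17 (adjusted p = 0.441) without the group that stood apart. The neutrophil genes had a median of 0.13 in untreated mice, with 4 of 12 below 0. In untreated mice without the group that stood apart their median was 0.035. After DSS it was -0.26, with 11 of 12 below 0 and none called, so that their estimates and that of Ccl5 were both below 0 there. The interaction with DSS, with that group included, was below 0 for 12 of 12 (median -0.34, over all genes -0.05), with none called. The part of these cells in the difference of Ccl5 was not tested.

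In untreated mice alone, 3 of the 26 cytotoxic genes were called lower without passive SIgA, beside 2.58% of all genes called. They were Srgn (-0.85 ± 0.17, adjusted p = 0.0220), Ctsc (-0.56 ± 0.12, 0.0294) and Serpinb6b (-0.58 ± 0.13, 0.0302), the last of a family of serine protease inhibitors. Trgv1 was lower too (-0.60 ± 0.11, 0.0128), and Maf, a transcription factor of the CD4 list, was higher (0.43 ± 0.08, 0.0157). No other list had a called gene there. Without the group that stood apart no gene of the 19938 was called in untreated mice, these 5 included. Srgn then had -1.02 ± 0.25 (adjusted p = 0.333), Ctsc -0.60 ± 0.18 (0.464) and Serpinb6b -0.64 ± 0.18 (0.445), while Trgv1 had -0.11 ± 0.14 and Maf 0.23 ± 0.12.

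The counts of the same lists for DSS are read against the 13.1% of all genes called. Of the 12 neutrophil genes 11 rose (median 1.04), as did 7 of the 15 macrophage and monocyte genes (median 0.25) and 4 of the 12 fibroblast genes. The shares of the T cell receptor and NK-type lists were near that of all genes. Of the T cell receptor list 2 of 24 rose, Lcp2 by 0.78 ± 0.09 and Ptprc by 0.53 ± 0.09. Lcp2, an adaptor of receptor signalling, and Ptprc are also known from myeloid cells. Of the cytotoxic list 5 of 26 rose, with Ccl3 at 3.12 ± 0.14, Srgn at 2.99 ± 0.12 and Ctsc at 0.66 ± 0.08 beside Tnfsf10 and Rab27a. Of the NK-type list 3 of 21 rose, the signalling adaptors Tyrobp (0.98 ± 0.11) and Fcer1g (0.99 ± 0.09), which myeloid cells share, and Slamf7 (0.27 ± 0.07).

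Of the homing list 4 of 22 rose after DSS, the integrin chains Itgal and Itgb2 with Ccr7 and Selplg, and Klf2 fell by 0.32 ± 0.07 on the log2 scale. None of the 5 gamma delta genes was called. Of the 15 CD4 and regulatory genes Il2ra rose, and of the 12 relatives of Ccl5 Ccl3, Ccl9 and Ccr1 rose and Ccl6 fell. Of 14 B and plasma cell genes Igha and Sdc1 fell, and of 15 epithelial genes Tff3 rose while Krt18 and Car4 fell. The part of myeloid cells in the DSS values of Ccl5 and the granzymes was not tested.

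Of the epithelial partners 7 of 19 rose after DSS and 2 fell. Il15, the cytokine that sustains intraepithelial lymphocytes, fell by 0.51 ± 0.11, and Btnl1, which with other butyrophilin-like proteins supports gamma delta cells, fell by 0.24 ± 0.07. Il7 rose by 0.42 ± 0.09, Ccl20 by 1.48 ± 0.12, Cxcl9 by 1.06 ± 0.11 and Cxcl11 by 0.78 ± 0.12, beside Il18, Myd88 and Btnl2. Of the 19 maintenance factors Prdm1, Runx1 and Gata3 rose and Bcl2 and Cish fell.

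Without untreated mice with both sources, the DSS comparison called 1210 genes, against 2618. The neutrophil, macrophage, fibroblast and T cell receptor lists kept counts of 11, 7, 4 and 2. Il15 was still called (-0.58 ± 0.13, adjusted p = 0.0157) and Btnl1 was not (-0.24 ± 0.08, adjusted p = 0.138). The partners then counted 5 higher and 1 lower, the cytotoxic list 4 higher, the NK-type list 2 higher, and the homing list 2 higher and 1 lower. Maintenance factors counted 1 in each direction, Prdm1 and Bcl2. Igha (-0.24 ± 0.17, adjusted p = 0.593), Il2ra (0.15 ± 0.07, 0.315), Ccr1 (0.19 ± 0.12, 0.50), Ccl6 (-0.29 ± 0.11, 0.190) and Krt18 (-0.17 ± 0.07, 0.256) were no longer called. Sdc1, Tff3, Car4, Ccl3 and Ccl9 still were.

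**Figure D4:**
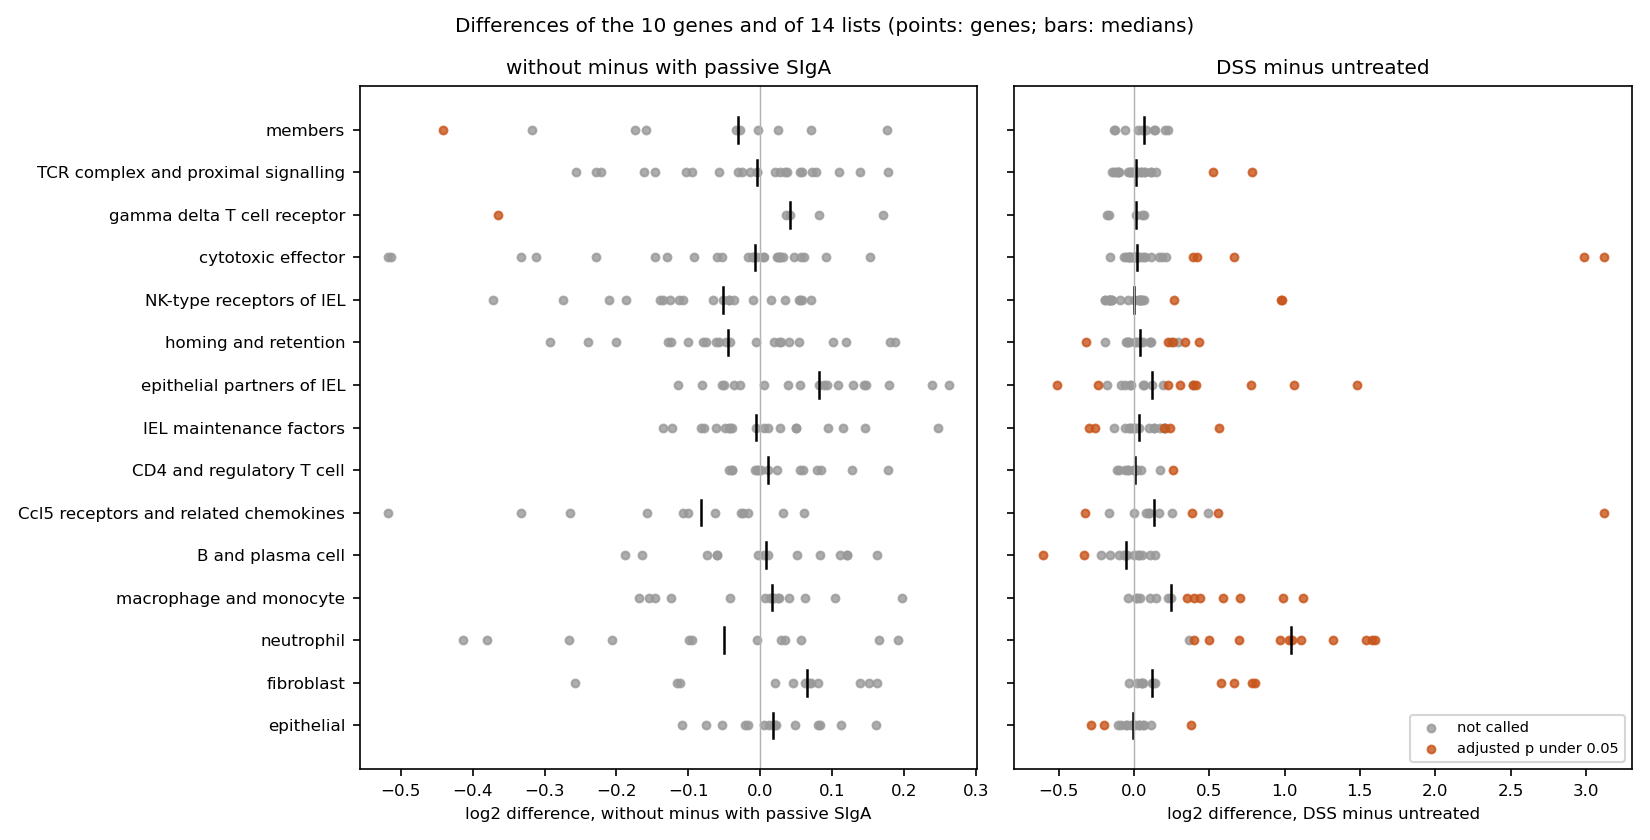
Log2 difference of each gene (points, coloured where the adjusted p is under 0.05) of the 10 genes (top row, named members) and of 14 lists (vertical axis), by passive SIgA and by DSS (horizontal axes), with bars at the medians. By passive SIgA the called points are Ccl5 and Trgv1, and by DSS 11 of 12 neutrophil genes are coloured while none of the 10 is.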

How the data were processed

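The deposited values are log2 intensities of an Affymetrix whole-transcript array, made by the authors with RMA per the submitters' processing notes (version not given in the sources used here). RMA quantile normalizes the arrays together, which lessens a shift shared by most genes. In the deposited values, array medians still ran from 6.68 to 6.83 over all probe sets and from 6.90 to 7.15 over the genes used. Of 35557 probe sets, 21789 named 1 gene, 1621 several and 12147 none in the platform's annotation. The first kind was used, with the highest mean for a gene that had several, which left 19938 genes. Of these probe sets, 21698 were found in the RefSeq table of GRCm38.p6, used for gene order.

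A mean per group was fitted with limma 3.58.1 in R 4.3.3 (8 residual and 5.03 prior degrees of freedom), two-sided, with Benjamini-Hochberg adjustment over all genes. Precision is limited by the number of arrays. On simulated data over 19938 genes, the fit recovered 78% of differences of 0.5 log2 for passive SIgA over all groups, and 15% of those of 0.25. In untreated mice it recovered 51.5% of those of 0.5, and after DSS 43%. The simulated noise was normal and independent between genes, with no group standing apart and no shift of whole arrays. The real arrays differ in this, so these shares may not hold for them.

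The members and the 14 lists were chosen with earlier results of these data known. All 10 members were named, with up to 4 genes of a list by smallest p for passive SIgA and the 6 genes most like the members' mean. Genes named beside counts for DSS or for untreated mice were chosen after their values were seen. Alternatives were a replicate block, a trend in the prior variance, array weights, other scalings, a filter on dim genes, mean probe sets, fits of fewer arrays and leaving out each array in turn.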

Additional observations from a re-analysis of the deposited data

Results flagged for a closer look

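Among the 8 arrays on each side of the passive SIgA comparison, 3 single values stood far from the rest of their side. Cd3d was 5.75256 in untreated replicate 1 with active SIgA only, and the next highest array without passive SIgA had 5.45717. Cd160 was 5.80694 on the same array, and the next had 5.34162. Gzmb was 6.87844 in DSS-treated replicate 2 with both sources of SIgA, and the next array with passive SIgA had 6.23457. The gaps made up 0.701, 0.669 and 0.528 of the range of their side, each above the critical value of Dixon's test at the 95% level. For each gene both sides were examined, 20 in all, and chance alone marks about 1 in 20.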

How the results depend on the processing

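Over 70 results of single members and 26 alternatives, 1585 values kept direction and side of the threshold, 140 changed the sign of a difference that was not called, 12 lost a call and 5 gained one, and no called difference changed sign. The count of members called for passive SIgA over all groups fell from 1 to 0 without the untreated group with both sources, and to 0 without it and untreated replicate 1 with active SIgA only (Ccl5 adjusted p = 0.192 and 0.176). In untreated mice it fell from 1 to 0 under both, and to 0 with array weights (Ccl5 adjusted p = 0.0515). In untreated mice with active SIgA it was 0 with array weights and 0 with the dimmest 30% of genes left out, a filter that removes Cd3g, Cd3d, Gzmb and Cd160. For DSS it was 1 (Ccl5) with a trend in the prior variance. With each of the 16 arrays left out in turn, the counts ran from 1 to 2 for passive SIgA over all groups, from 0 to 1 in untreated mice, from 0 to 1 in untreated mice with active SIgA, from 0 to 1 for DSS over all groups and from 0 to 1 for DSS with passive SIgA. Where 1 array of a group remained, its spread was taken from the other groups, and the cause of these changes was not tested.

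Counts over all genes moved more. Against 192 genes for passive SIgA over all groups there were 384 with a trend, 330 with arrays centred on their median, 397 after quantile normalization and 127 with array weights. With single arrays left out they ran from 52 to 267, and in untreated mice, against 514, from 157 to 714. In untreated mice with active SIgA, against 1080, they ran from 269 to 1519, with 357 under array weights and 129 with dim genes left out. For active SIgA, against 274, they ran from 58 to 1043, with 1 without the group that stood apart and 7 with dim genes left out. For DSS, against 2618, they ran from 1951 to 3290, with 1210 without that group.

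Same-numbered replicates deviated together in some pairs of groups and not in others (correlations from -0.301 to 0.666 over 28 pairs, median 0.0758, 14 over 0.1). The labels name no shared source, so the numbers were not taken to pair the samples. With a replicate block Ccl5 had -0.441 (adjusted p = 0.0140), and 275 genes were called for passive SIgA over all groups, 16 after DSS, against 0, and 415 for active SIgA, against 274. The block changed no member's call.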
